A study of Homo sapiens with 6 samples.

Results

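Transcripts of 39 amino acid transporter genes were measured in the tamoxifen-resistant breast cancer subline T47D-TR and in its parent line T47D, among 20503 genes in the deposited count table. The members are the listed genes of the solute carrier families SLC1, SLC3, SLC6, SLC7, SLC36, SLC38 and SLC43. The rule picks them by gene symbol and uses no measured value, but it was set with earlier results of these data known. It leaves out SLC7A6OS, a neighbour on the opposite strand, and 1 further SLC7 gene that is not analysed here. The T47D-TR group has 3 libraries from cells kept in medium with 1 µM 4-hydroxytamoxifen, the active metabolite of tamoxifen. The T47D group has 3 libraries from the parent line, described in the labels as oestrogen receptor positive, and no drug is named for it. The medium of both cultures was DMEM with 10% serum and antibiotics. The subline and the drug changed together, so they cannot be told apart, and the labels do not say whether the subline is 1 clone. Each cell line was profiled in triplicate, and nothing in the labels ties the libraries to separate cultures. The p-values therefore reflect only library-to-library spread, which may be technical.

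Amino acids cross the plasma membrane on carriers of several unrelated families. SLC1 and SLC38 proteins use the sodium gradient to load cells with glutamate, glutamine, alanine and serine. Light chains of the SLC7 family then exchange part of that load for leucine and other essential amino acids, and they reach the surface only when bound to a heavy chain of the SLC3 family. SLC43 proteins let large neutral amino acids pass down their gradient, and some SLC36 proteins move small amino acids with protons. SLC6 proteins carry glycine, taurine, creatine and neutral amino acids with sodium and chloride. Many of these genes respond to amino acid shortage through the transcription factor ATF4, and leucine and arginine that enter the cell activate the growth kinase complex mTORC1 at the lysosome.

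Depth ran over 17199315 to 19867230 counts a library. The 8 luminal epithelial markers summed to 2405 to 2816 CPM (counts scaled to library size) in T47D-TR and 2045 to 2126 CPM in T47D, most of it from the keratin genes KRT8, with 1580 ± 120 CPM in T47D-TR and 1338 ± 26.0 CPM in T47D, and KRT18, with 928 ± 90.2 CPM in T47D-TR and 683 ± 18.7 CPM in T47D (SD, n = 3 each). The other luminal markers stood far below KRT8 and KRT18. KRT19 had 112 ± 3.62 CPM in T47D-TR and 27.8 ± 1.23 CPM in T47D (SD, n = 3 each). GATA3 averaged 0.625 CPM in T47D-TR and 1.23 CPM in T47D. CDH1 and FOXA1 averaged 5.50 and 10.7 CPM in T47D-TR, against 2.12 and 5.64 CPM in T47D. EPCAM averaged 14.7 CPM in T47D-TR and 38.6 CPM in T47D. The oestrogen receptor gene ESR1, which defines the labelled cell type, had 2, 4 and 3 counts in T47D-TR and 3, 0 and 2 counts in T47D, so the label of an oestrogen receptor positive line was not borne out at the RNA level in either culture. Of the mesenchymal markers, VIM and CD44 stood at 1297 and 721 CPM in T47D-TR and 770 and 488 CPM in T47D. AXL went the other way, with 117 CPM in T47D-TR and 195 CPM in T47D. CAV1 differed little, with 304 CPM in T47D-TR and 319 CPM in T47D. Whether the libraries labelled T47D match that line was not tested. The 4 mesenchymal markers summed to 2356 to 2494 CPM in T47D-TR and 1758 to 1792 CPM in T47D, the 4 basal markers to 13.98 to 16.95 CPM in T47D-TR and 5.71 to 6.80 CPM in T47D, and the 6 fibroblast markers to 20.3 to 24.6 CPM in T47D-TR and 36.6 to 39.9 CPM in T47D. Most of the fibroblast difference came from LUM, with 0.253 CPM in T47D-TR and 13.9 CPM in T47D, while COL1A1 had 17.5 and 18.2 CPM. The 5 leukocyte and endothelial markers in the table summed to 80.5 to 102.5 CPM in T47D-TR and 24.0 to 27.1 CPM in T47D. Nearly all of it was CD68, with 64.6 CPM in T47D-TR and 23.7 CPM in T47D, and PECAM1, with 27.3 and 0.669 CPM. CD8A was lower in T47D-TR, at 0.558 CPM against 1.41 CPM in T47D, and PTPRC and VWF had 0 to 4 counts a library. KRT14, DCN and COL1A2 were at 0 in T47D. In T47D-TR replicates 1, 2 and 3 KRT14 had 2, 1 and 15 counts, DCN 4, 0 and 19 and COL1A2 0, 0 and 22. Most of these counts thus came from replicate 3 alone. The part of any such shift in the results on transporters was not tested, and in these bulk samples fewer cells of a type and less RNA per cell cannot be told apart. Replicate 3 of T47D-TR was the least like the rest: the chi-square statistic divided by the number of genes was 8.36 and 9.58 between it and replicates 1 and 2, and 2.79 between those.

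Most members that could be tested differed between the cultures. Of the 39 members 32 passed the filter on low counts, and edgeR's quasi-likelihood test with Benjamini-Hochberg adjustment over all tested genes called 16 higher and 10 lower in T47D-TR at an adjusted p under 0.05, with 6 not called. Across all 15961 tested genes 63.0% were called, 32.5% higher and 30.5% lower, against 81.25% of the tested members called and 31.25% called lower. Of the members 9 rose at least 2-fold and 0 fell at least 2-fold, where 10.1% and 3.87% of all tested genes did so. Of these 9, SLC1A1, SLC7A4 and SLC6A14 passed the filter only through T47D-TR, the culture where they are higher. They averaged 0.194, 0.143 and 0.476 CPM in T47D. When only genes with a mean of at least 5 CPM were tested, 25 members remained and 6 rose at least 2-fold, SLC6A15 now among them. The share of all 11342 genes in that setting that rose at least 2-fold was not computed. The 10.1% above does not apply to it. The median log2 fold change, T47D-TR over T47D, was 0.24 among tested members and 0.0019 among all tested genes. The libraries of one culture lay entirely above or below those of the other for 26 of the 32, beside 68.3% of all tested genes. The authors' deposited table gives 21 of the 32 a false discovery rate under 0.05, and all 21 are among the 26 called here. The other 5 calls were SLC1A3, SLC1A5, SLC7A1, SLC36A1 and SLC38A4.

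**Figure D1:**
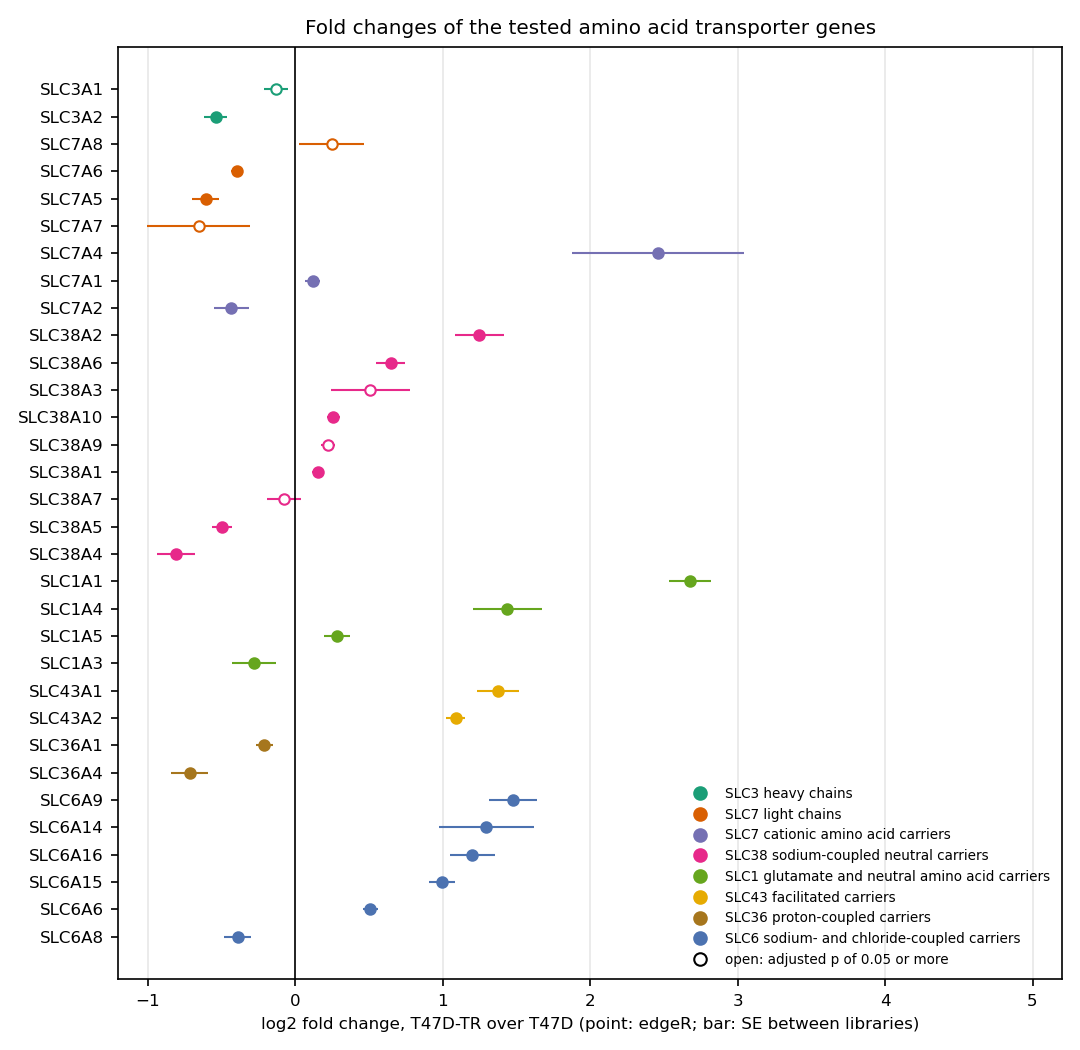
Log2 fold change of T47D-TR over T47D for the 32 tested amino acid transporter genes, grouped by family and role. Points are edgeR estimates, bars the SE from the spread between libraries, and open points have an adjusted p of 0.05 or more; the 9 members at 1 or beyond all lie to the right, and the leftmost called gene, SLC38A4, is at -0.81.

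The main heavy chain and its most abundant light chain fell together. SLC3A2 encodes the heavy chain CD98hc, which carries several SLC7 light chains to the cell surface. It had 211, 229 and 252 CPM in T47D-TR replicates 1, 2 and 3, against 328, 344 and 331 CPM in those of T47D. All T47D-TR libraries lay below all T47D libraries, with a log2 fold change of -0.54 ± 0.08 (SE, n = 3 each, edgeR adjusted p = 4.6e-06). SLC7A5 encodes LAT1, the light chain that exchanges glutamine for leucine and other large neutral amino acids. It had 483, 513 and 596 CPM in T47D-TR and 830, 810 and 785 CPM in T47D, a log2 fold change of -0.61 ± 0.09 (edgeR adjusted p = 3.7e-06). The groups did not overlap, and T47D-TR replicate 3 was nearest to T47D for both genes. Per kilobase of exon, SLC7A5 transcripts outnumbered those of SLC3A2 by 1.30 to 1.37 times in T47D-TR and by 1.36 to 1.46 times in T47D, ranges that overlap.

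SLC7A6, which encodes the light chain y+LAT2 that exchanges arginine for glutamine, fell too. It had 149, 145 and 138 CPM in T47D-TR against 194, 184 and 188 CPM in T47D (log2 fold change -0.39 ± 0.04, edgeR adjusted p = 1.1e-05), with no overlap. Its exons share 44.4% of their length with SLC7A6OS on the opposite strand, which itself fell to 41.7 ± 2.43 CPM in T47D-TR, against 48.4 ± 2.36 CPM in T47D (SD, n = 3 each). Whether the authors counted by strand is not stated in the labels, so reads of this pair may not be separated. SLC7A8, which encodes the light chain LAT2, was not called at 6.61 ± 1.28 CPM in T47D-TR and 5.53 ± 1.12 CPM in T47D. SLC7A7, which encodes y+LAT1, had 5, 13 and 5 counts in T47D-TR and 13, 11 and 13 counts in T47D and was not called. SLC7A10, which encodes the small neutral amino acid exchanger asc-1, was not tested, with 8, 3 and 0 counts in T47D-TR and 5, 0 and 0 counts in T47D. The other heavy chain gene, SLC3A1, whose product rBAT pairs with the cystine and dibasic amino acid exchanger of kidney and gut, had 21.3 ± 0.941 CPM in T47D-TR and 23.4 ± 2.06 CPM in T47D and was not called. It shares 29.4% of its exon length with PREPL on the opposite strand.

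SLC7A5 also has 2 partial copies in the table. SLC7A5P2 had 16, 16 and 13 counts in T47D-TR and 35, 33 and 27 counts in T47D, and fell (log2 fold change -1.05 ± 0.11, edgeR adjusted p = 0.0029). SLC7A5P1 had 6, 4 and 14 counts in T47D-TR and 18, 9 and 13 counts in T47D and was not called. Reads shared between the gene and its copies may be divided either way, but the copies hold few counts beside the 9311 to 10068 of SLC7A5 in T47D-TR and 14653 to 15845 in T47D.

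Among the SLC7 genes for arginine and lysine carriers, SLC7A1, which encodes the widely expressed carrier CAT-1, differed little. It had 447, 488 and 492 CPM in T47D-TR and 450, 440 and 425 CPM in T47D. T47D-TR replicate 1 lay inside the range of T47D, and the log2 fold change was 0.12 ± 0.05 (edgeR adjusted p = 0.037). This call ended with library size alone as the scaling (0.081, edgeR adjusted p = 0.131) and without T47D-TR replicate 2 (edgeR adjusted p = 0.1) or T47D replicate 1 (0.052), 2 (0.106) or 3 (0.156). SLC7A2, which encodes the cationic carrier CAT-2, fell to 29.7, 30.1 and 23.3 CPM in T47D-TR, against 37.6, 36.7 and 38.3 CPM in T47D (log2 fold change -0.43 ± 0.12, edgeR adjusted p = 0.00086). SLC7A4, a family member with no established substrate, rose at a very low level, with 15, 15 and 15 counts in T47D-TR and 6, 0 and 2 counts in T47D (log2 fold change 2.46 ± 0.58, edgeR adjusted p = 0.0026). Its log2 fold change was 3.78 without T47D replicate 1 and 1.87 without T47D replicate 2. Its exons overlap P2RX6 and an antisense gene on the opposite strand over 4.62% and 6.01% of their length.

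**Figure D2:**
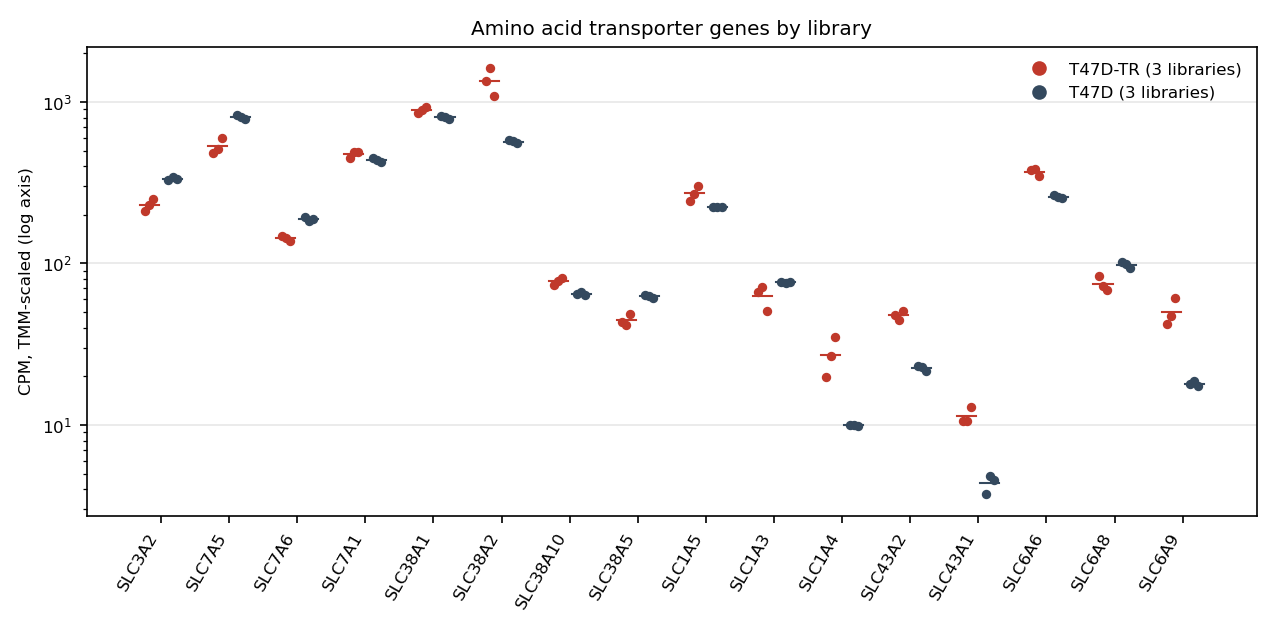
Level in every library of 16 amino acid transporter genes, those with a mean of at least 50 CPM in one culture or a called rise of at least 2-fold to at least 10 CPM (TMM-scaled CPM, log axis). Points are libraries in the order of their replicate numbers and lines the mean of 3; SLC38A2 lies at 1088 CPM or more in T47D-TR, while SLC3A2, SLC7A5 and SLC7A6 lie lower there than in T47D.

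SLC38A2 rose to the highest level of any member. It encodes SNAT2, a sodium-coupled carrier of alanine, serine and glutamine whose gene is known to be induced by amino acid shortage and hypertonicity. It had 1345, 1615 and 1088 CPM in T47D-TR, against 579, 569 and 555 CPM in T47D. The lowest T47D-TR library, replicate 3, lay far above every T47D library, and the log2 fold change was 1.25 ± 0.17 (SE, n = 3 each, edgeR adjusted p = 4.2e-07). SLC38A2 made up 23.0% to 31.6% of the CPM summed over the members in T47D-TR libraries and 13.6% in each T47D library. SLC38A1 encodes the related carrier SNAT1, which also imports glutamine. It had 856, 894 and 928 CPM in T47D-TR and 822, 801 and 785 CPM in T47D, a small rise without overlap (log2 fold change 0.15 ± 0.04, edgeR adjusted p = 0.0048). Both genes lie on chromosome 12, SLC38A1 at 46183063 to 46269043 and SLC38A2 at 46358188 to 46372773 (GRCh38). Per kilobase of exon, SLC38A2 stood at 2.18 to 3.36 times the level of SLC38A1 in T47D-TR and at 1.31 to 1.32 times in T47D.

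SLC38A4, which lies on the same chromosome at 46764761 to 46832431, encodes a carrier known from liver and fell. It had 18, 22 and 15 counts in T47D-TR and 32, 30 and 36 counts in T47D (log2 fold change -0.81 ± 0.13, edgeR adjusted p = 0.012), and DESeq2 did not call it (adjusted p = 0.0589). SLC38A5, which encodes the glutamine and asparagine carrier SN2, fell to 43.1, 41.8 and 48.3 CPM in T47D-TR, against 64.2, 62.5 and 60.98 CPM in T47D (log2 fold change -0.50 ± 0.07, edgeR adjusted p = 1.9e-05). SLC38A10 rose to 74.0, 77.4 and 81.6 CPM in T47D-TR, against 64.3, 66.4 and 63.8 CPM in T47D (log2 fold change 0.26 ± 0.04, edgeR adjusted p = 0.00093). SLC38A6 rose to 12.6 ± 1.45 CPM in T47D-TR, against 8.04 ± 0.256 CPM in T47D (log2 fold change 0.65 ± 0.10, edgeR adjusted p = 0.00022). The remaining SLC38 members were not called. SLC38A9, which encodes a lysosomal arginine sensor of mTORC1, had 11.4 ± 0.327 CPM in T47D-TR and 9.78 ± 0.456 CPM in T47D (log2 fold change 0.22 ± 0.05, edgeR adjusted p = 0.056), and was called when only genes with a mean of at least 5 CPM were tested (edgeR adjusted p = 0.0408). SLC38A7, which encodes a lysosomal glutamine carrier, had 23.0 ± 2.96 CPM in T47D-TR and 24.2 ± 0.903 CPM in T47D. SLC38A3, which encodes the system N carrier SN1, had 1.51 ± 0.194 CPM in T47D-TR and 1.05 ± 0.321 CPM in T47D.

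Within the SLC1 family the neutral amino acid carriers rose by unequal amounts. SLC1A4 encodes ASCT1, a carrier of serine, alanine and threonine, and had 19.9, 26.7 and 34.8 CPM in T47D-TR, against 10.0, 9.97 and 9.91 CPM in T47D. Every T47D-TR library was higher, replicate 3 most, with a log2 fold change of 1.44 ± 0.23 (edgeR adjusted p = 8.3e-06). SLC1A5 encodes ASCT2, the glutamine exchanger that many tumours express strongly. It had 245, 268 and 303 CPM in T47D-TR, against 222, 224 and 224 CPM in T47D (log2 fold change 0.28 ± 0.09, edgeR adjusted p = 0.0019). The groups did not overlap, while the authors' deposited table gives this gene a false discovery rate of 0.141. An antisense gene covers 23.4% of its exon length on the opposite strand. Of the glutamate carriers, SLC1A3, which encodes EAAT1, had 66.8, 71.0 and 50.6 CPM in T47D-TR and 77.0, 75.4 and 77.1 CPM in T47D. It fell by 0.28 ± 0.15 on the log2 scale (edgeR adjusted p = 0.020). The call was lost without T47D replicate 1 (edgeR adjusted p = 0.0627) or T47D replicate 3 (edgeR adjusted p = 0.0625), and the log2 fold change was -0.15 without T47D-TR replicate 3, the lowest library. SLC1A1, which encodes EAAT3, a carrier of glutamate and cysteine, had a log2 fold change of 2.68 ± 0.14 (edgeR adjusted p = 3.4e-05). Its counts were low, 27, 21 and 23 in T47D-TR and 4, 4 and 3 in T47D. At such counts its SE is smaller than counting error alone would give.

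Both tested SLC43 genes rose, beside 32.5% of all tested genes. SLC43A2 encodes LAT4, which lets leucine, phenylalanine and methionine pass down their gradient, and had 47.7, 44.5 and 51.1 CPM in T47D-TR, against 23.2, 22.7 and 21.5 CPM in T47D (log2 fold change 1.09 ± 0.07, edgeR adjusted p = 5.3e-08). SLC43A1 encodes LAT3, a related carrier first described in liver and prostate. It had 10.6, 10.6 and 12.9 CPM in T47D-TR, against 3.72, 4.81 and 4.55 CPM in T47D (log2 fold change 1.37 ± 0.14, edgeR adjusted p = 2.1e-06). No T47D-TR library of either gene reached down to T47D. Both stayed minor beside SLC7A5. Per kilobase of exon, their sum was 0.0805 to 0.0890 of the SLC7A5 level in T47D-TR and 0.0222 to 0.0247 in T47D. SLC43A3, whose product carries nucleobases and not amino acids, was not tested, with 6, 9 and 2 counts in T47D-TR and 3, 0 and 1 counts in T47D.

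Both tested SLC36 genes fell, beside 30.5% of all tested genes. SLC36A4, which encodes a high-affinity carrier of proline and tryptophan, fell to 33.3, 31.3 and 25.9 CPM in T47D-TR, against 50.7, 45.7 and 52.5 CPM in T47D (log2 fold change -0.72 ± 0.12, edgeR adjusted p = 1.5e-05). SLC36A1 encodes PAT1, which exports small amino acids from lysosomes. It had 20.8, 22.8 and 21.6 CPM in T47D-TR and 25.1, 23.8 and 26.6 CPM in T47D (log2 fold change -0.21 ± 0.06, edgeR adjusted p = 0.026), and that call ended with DESeq2 (adjusted p = 0.0636) and without T47D-TR replicate 1 (edgeR adjusted p = 0.0916), T47D replicate 1 (0.0612) or T47D replicate 3 (0.107).

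Of 6 tested SLC6 genes 5 rose and 1 fell, beside 32.5% and 30.5% of all tested genes. SLC6A9 encodes GlyT1, a glycine importer, and had 42.0, 47.3 and 61.2 CPM in T47D-TR, against 17.8, 18.7 and 17.3 CPM in T47D. All T47D-TR libraries were more than double every T47D library, and the log2 fold change was 1.48 ± 0.16 (edgeR adjusted p = 3.6e-07). The taurine carrier gene SLC6A6 rose to 377, 382 and 347 CPM in T47D-TR, against 267, 257 and 253 CPM in T47D (log2 fold change 0.51 ± 0.05, edgeR adjusted p = 1.1e-06). SLC6A8, which encodes the creatine carrier, was the member that fell, with 83.2, 72.6 and 68.5 CPM in T47D-TR and 102.2, 98.7 and 93.5 CPM in T47D (log2 fold change -0.39 ± 0.09, edgeR adjusted p = 0.00029).

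The other 3 rising SLC6 genes stood at lower levels. SLC6A15 encodes a carrier of branched-chain amino acids and proline known from brain, and had 16.7 ± 0.546 CPM in T47D-TR and 8.36 ± 0.809 CPM in T47D, a log2 fold change of 1.00 ± 0.09 that lies just under 2-fold (edgeR adjusted p = 2.1e-06). SLC6A16, an orphan member, had 53, 65 and 67 counts in T47D-TR and 27, 29 and 26 counts in T47D (log2 fold change 1.20 ± 0.15, edgeR adjusted p = 0.00026). SLC6A14 encodes a concentrative carrier of neutral and basic amino acids that is known as an oestrogen-responsive gene in breast cancer. It had 19, 33 and 14 counts in T47D-TR and 11, 9 and 7 counts in T47D (log2 fold change 1.30 ± 0.32, edgeR adjusted p = 0.0082), and without T47D-TR replicate 2 the call ended (log2 fold change 0.93, edgeR adjusted p = 0.0566).

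The 7 members that were not tested had at most 10 counts in any library. SLC6A11, which encodes a GABA carrier, had 2, 6 and 2 counts in T47D-TR and 0 in all T47D libraries. Against a floor of 3 counts over the T47D group the ratio was 3.39, with the T47D-TR counts taken as exact. SLC6A12, which encodes the betaine carrier, had 20 counts over T47D-TR and 2 over T47D, a ratio of 10.2 with a 95% exact (Clopper-Pearson) interval of 2.47 to 89.8. The authors' deposited table gives SLC6A12 a false discovery rate of 0.00737. The serotonin carrier gene SLC6A4 had 1 count over T47D-TR and 12 over T47D, a ratio of 0.0848 with an interval of 0.00198 to 0.573. For SLC6A3, the dopamine carrier gene, the ratio was 5.09 with an interval of 0.570 to 240.7, from 5 counts in T47D-TR and 1 in T47D. The proline carrier gene SLC6A7 had 15 counts over T47D-TR and 7 over T47D. These intervals account for counting error alone, because PCR duplicates are not separate molecules. The floor allows for that error on the T47D side only.

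**Figure D3:**
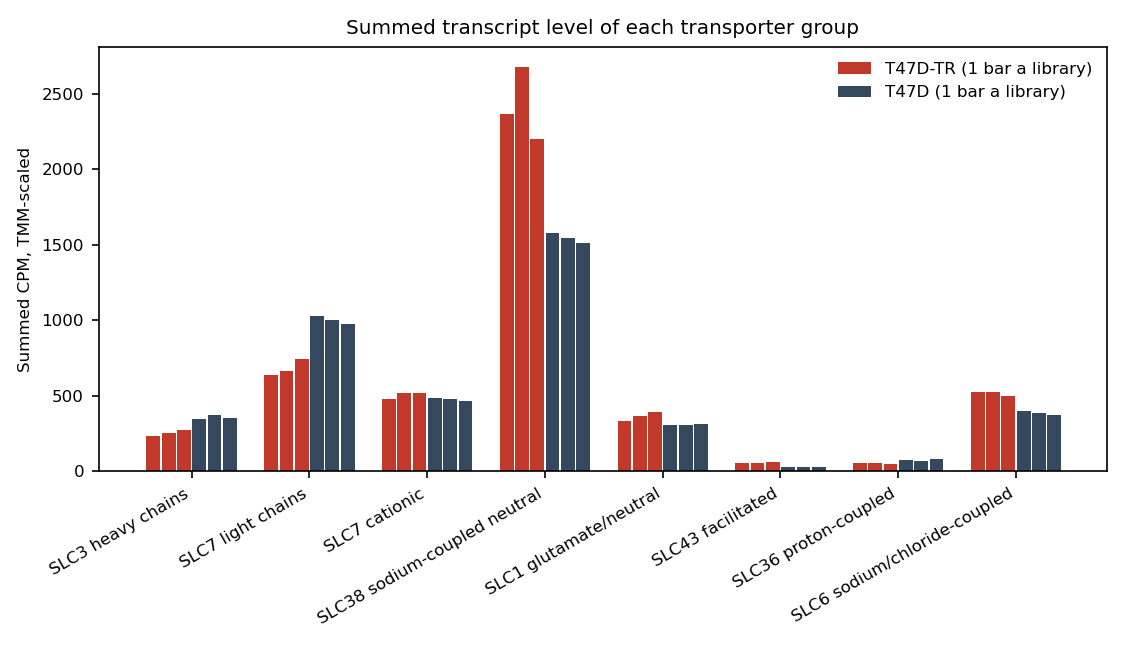
CPM summed over the members of each transporter group, 1 bar a library in the order of replicate numbers, T47D-TR left of T47D. The SLC38 genes sum to 2198 to 2675 CPM in T47D-TR and 1509 to 1574 CPM in T47D, and the SLC7 light chains to 638 to 742 CPM in T47D-TR and 978 to 1030 CPM in T47D.

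Summed over all 39 members, transporter transcripts took 4841 ± 234 CPM in T47D-TR and 4177 ± 79.4 CPM in T47D (SD, n = 3 each), and no library of one culture reached the other's range. The sum moved in opposite directions by group. SLC38 genes summed to 2414 ± 241 CPM in T47D-TR and 1543 ± 32.6 CPM in T47D, SLC6 genes to 516 ± 14.5 CPM in T47D-TR and 386 ± 12.5 CPM in T47D. SLC1 genes summed to 363 ± 28.7 CPM in T47D-TR and 310 ± 0.737 CPM in T47D, and SLC43 genes to 59.4 ± 4.301 CPM in T47D-TR and 26.9 ± 0.721 CPM in T47D. The SLC7 light chains listed here summed to 681 ± 54.0 CPM in T47D-TR and 1003 ± 26.1 CPM in T47D, the SLC3 heavy chains to 252 ± 20.7 CPM in T47D-TR and 358 ± 10.7 CPM in T47D, and the SLC36 genes to 51.9 ± 3.82 CPM in T47D-TR and 74.8 ± 4.86 CPM in T47D. These groups of libraries were apart in each case. The SLC7 cationic carriers overlapped, with 504 ± 23.1 CPM in T47D-TR and 476 ± 12.3 CPM in T47D. No test was run on these sums, and an exact permutation test of 3 against 3 libraries cannot go below p = 0.1.

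The order of the levels changed at the top. Per kilobase of merged exons in GENCODE 29, the leading members in T47D-TR were SLC38A2 with 217 to 323 CPM per kb, SLC7A5 with 105 to 130, SLC38A1 with 91.8 to 99.5, SLC3A2 with 79.5 to 94.8, SLC1A5 with 73.4 to 90.9, SLC7A1 with 60.9 to 67.0 and SLC6A6 with 50.2 to 55.3. In T47D they were SLC7A5 with 171 to 181 CPM per kb, SLC3A2 with 124 to 130, SLC38A2 with 111 to 116, SLC38A1 with 84.1 to 88.2, SLC1A5 with 66.7 to 67.3, SLC7A1 with 57.8 to 61.2 and SLC6A6 with 36.7 to 38.7. In T47D-TR the range of SLC3A2 overlapped those of SLC38A1 and SLC1A5, but within each T47D-TR library the order was SLC38A1, SLC3A2, SLC1A5. No neighbouring ranges overlapped among these 7 genes in T47D. The same 7 genes led in both cultures. By CPM without regard to length, the 5 highest genes of each library took 72.9% to 76.2% of the members' sum in T47D-TR and 70.4% to 70.8% in T47D, with SLC6A6 among them in T47D-TR and SLC3A2 in T47D beside SLC38A2, SLC38A1, SLC7A5 and SLC7A1. The exon length assumes that all annotated exons are transcribed, which these counts cannot show.

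**Figure D4:**
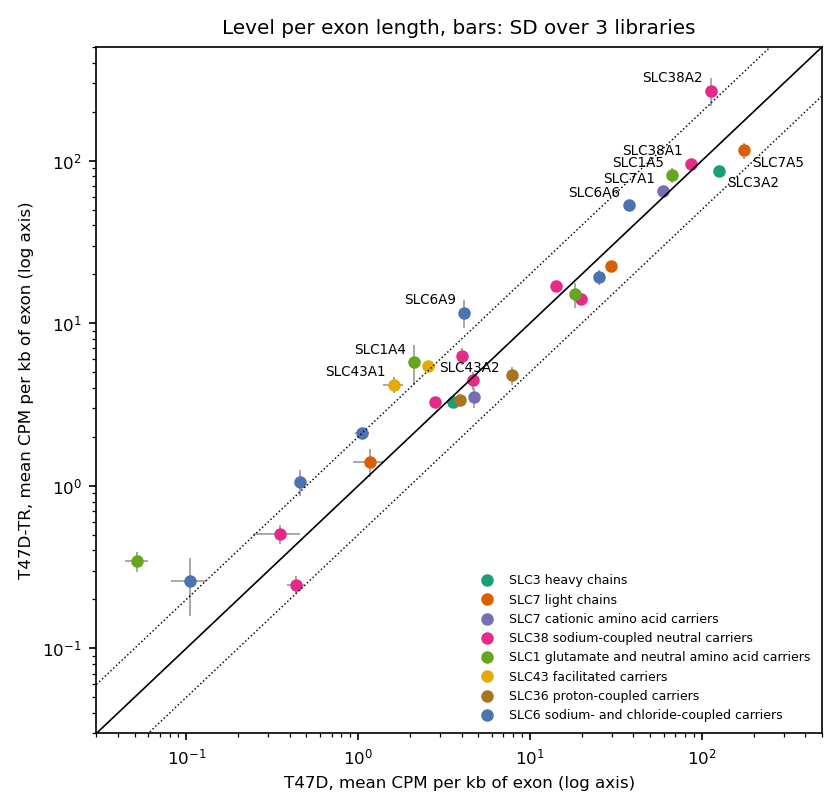
Mean CPM per kilobase of exon in T47D-TR (vertical, log axis) against T47D (horizontal, log axis) for the 30 members with at least 1 CPM in one culture, coloured by group, with bars for the SD over 3 libraries. The solid line marks equal levels and the dotted lines 2-fold differences; SLC38A2 lies above the upper dotted line at 269.5 CPM per kb in T47D-TR against 113 in T47D, and SLC7A5 and SLC3A2 lie below the solid line.

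The T47D-TR libraries differed more among themselves than the T47D libraries for 24 of the 32 tested members beside 63.5% of all tested genes, by the SD of log2 CPM. Replicate 3 was the highest T47D-TR library for 18 of the 32 and the lowest for 9. SLC1A4 and SLC6A9 were highest in replicate 3, by 0.58 and 0.45 on the log2 scale over the mean of the other T47D-TR libraries, and SLC38A2 and SLC1A3 were lowest there, each by 0.44. Without replicate 3 the member calls were again 16 higher and 10 lower, beside 5434 and 5231 of all 16335 genes tested in that fit.

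Promoter sequences were compared for the 30 members that matched a RefSeq promoter by gene number, from 250 bases before to 50 bases after a start site (GRCh38.p14). The core of the amino acid response element bound by ATF4, searched as TGATGNAA on both strands, occurred in 4 of the 30 promoters (13.3%) and in 3.67% of all 27305. These were SLC3A2 and SLC1A3, which fell, and SLC38A1 and SLC7A1, which rose slightly. The E-box CACGTG, a palindrome that reads alike on both strands and is bound by MYC and related factors, occurred in 5 of the 30 (16.7%) and in 7.43% of all. These were SLC7A5 and SLC38A5, which fell, SLC43A1 and SLC6A16, which rose, and SLC38A7, which was not called. A match is a description of letters and not a site in use, and elements outside this window were not searched. For each motif the called members with the highest and the lowest fold change are shown, 5′ to 3′ on the strand of the gene, with the motif in capitals.
SLC38A1, chr12:46266467-46266766, minus strand: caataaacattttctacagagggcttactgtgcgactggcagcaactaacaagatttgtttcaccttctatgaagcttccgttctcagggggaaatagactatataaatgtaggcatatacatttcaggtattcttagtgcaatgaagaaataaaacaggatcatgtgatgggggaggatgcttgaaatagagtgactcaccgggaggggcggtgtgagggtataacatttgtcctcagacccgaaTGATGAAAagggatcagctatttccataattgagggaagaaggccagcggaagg
SLC3A2, chr11:62881449-62881748, plus strand: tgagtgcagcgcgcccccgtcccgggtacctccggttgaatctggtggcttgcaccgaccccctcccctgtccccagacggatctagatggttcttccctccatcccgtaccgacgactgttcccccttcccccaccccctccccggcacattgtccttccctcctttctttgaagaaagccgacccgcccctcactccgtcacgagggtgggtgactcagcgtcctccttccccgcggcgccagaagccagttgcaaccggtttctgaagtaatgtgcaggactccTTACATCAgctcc
SLC43A1, chr11:57515653-57515952, minus strand: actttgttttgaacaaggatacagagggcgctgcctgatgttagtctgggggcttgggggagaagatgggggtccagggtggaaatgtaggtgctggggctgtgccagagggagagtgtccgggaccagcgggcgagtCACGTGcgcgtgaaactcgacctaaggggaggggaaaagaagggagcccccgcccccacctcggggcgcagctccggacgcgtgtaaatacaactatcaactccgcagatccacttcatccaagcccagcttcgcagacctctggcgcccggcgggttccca
SLC7A5, chr16:87869458-87869757, minus strand: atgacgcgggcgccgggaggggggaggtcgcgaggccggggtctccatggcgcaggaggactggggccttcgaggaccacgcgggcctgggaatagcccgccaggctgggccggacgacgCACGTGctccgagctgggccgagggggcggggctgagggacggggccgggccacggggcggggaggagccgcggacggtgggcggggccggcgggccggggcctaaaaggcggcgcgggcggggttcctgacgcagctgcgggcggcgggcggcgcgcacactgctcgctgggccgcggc
The first pair holds the ATF4 core, which begins 4 bases before the start in SLC38A1 and so spans it. In SLC3A2 the core lies on the other strand, from 37 bases after the start. The second pair holds the E-box, which begins 112 bases before the start in SLC43A1 and 130 bases before it in SLC7A5. RefSeq's start for SLC38A1 and SLC3A2 lies inside the annotated span of the gene and not at its outer end, so other starts of these genes were not searched.

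Among genes that sense amino acids for mTORC1, SESN2 rose. Of 26 tested genes in that list 5 rose and 11 fell (median log2 fold change -0.058), beside 32.5% and 30.5% of all tested genes. SESN2, which encodes a leucine sensor induced by stress, rose to 46.7, 57.4 and 50.7 CPM in T47D-TR, against 16.9, 16.2 and 14.1 CPM in T47D (log2 fold change 1.71 ± 0.12, edgeR adjusted p = 1.1e-08). LAMTOR2, a subunit of the lysosomal scaffold, rose by 0.43 ± 0.12 on the log2 scale. ITFG2, a subunit of the KICSTOR complex, had a log2 fold change of -0.56 ± 0.05, NPRL2, a subunit of the inhibitor GATOR1, one of -0.51 ± 0.08, and LAMTOR1, the scaffold's lysosomal anchor, one of -0.50 ± 0.12. All 5 were called. SESN3, a relative of SESN2 picked out after its values were seen, fell at low counts, with 8, 12 and 15 in T47D-TR and 41, 52 and 55 in T47D (log2 fold change -2.04 ± 0.29, edgeR adjusted p = 4.2e-05).

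Enzymes of amino acid synthesis and glutamine use went both ways, with 10 of 31 higher and 11 lower, near the 32.5% and 30.5% of all tested genes, and a median log2 fold change of 0.027. GLUL, which encodes glutamine synthetase, fell to 27.1, 25.4 and 24.4 CPM in T47D-TR, against 51.1, 55.3 and 54.7 CPM in T47D (log2 fold change -1.07 ± 0.06, edgeR adjusted p = 3.0e-08). PYCRL, which encodes a proline synthesis enzyme, and OAT, the ornithine aminotransferase gene, fell by 0.75 ± 0.09 and 0.67 ± 0.06 on the log2 scale. CTH, which encodes the cysteine-forming enzyme cystathionine gamma-lyase, rose by 0.94 ± 0.14, the argininosuccinate synthase gene ASS1 by 0.89 ± 0.13 and BCKDHB, a subunit of the enzyme that degrades branched-chain amino acids, by 0.81 ± 0.06.

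Of 8 tested genes of other carriers and partner proteins 2 rose and 4 fell, beside 32.5% and 30.5% of all tested genes, with a median log2 fold change of -0.20. LAPTM4B, whose product recruits LAT1 to lysosomes, fell to 275, 257 and 267 CPM in T47D-TR, against 353, 353 and 379 CPM in T47D (log2 fold change -0.44 ± 0.04, edgeR adjusted p = 2.7e-06). MFSD12, which is required for cysteine import into lysosomes, fell by 0.74 ± 0.11 on the log2 scale, and the lysosomal cystine exporter gene CTNS fell by 0.25 ± 0.04. ARL6IP5, whose product binds EAAT3, rose by 0.36 ± 0.03, and SLC17A5, which encodes a lysosomal exporter of sialic acid, by 0.41 ± 0.09.

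**Figure D5:**
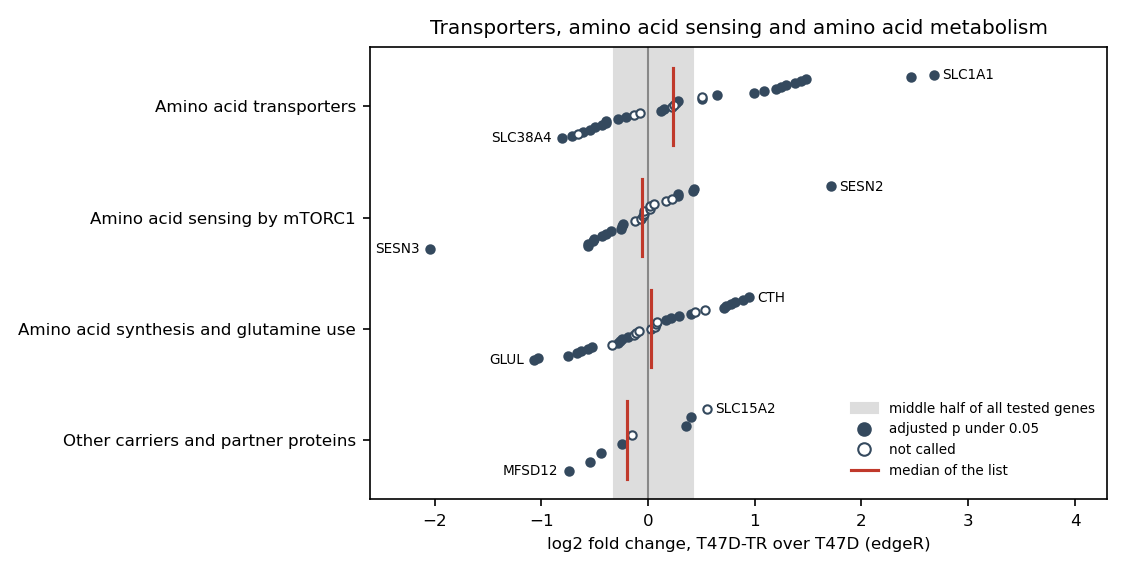
Log2 fold change of T47D-TR over T47D for the tested amino acid transporter genes and for 3 lists of related genes, 1 point a gene, filled where called. Red lines mark each list's median, at 0.24, -0.058, 0.027 and -0.20 from top to bottom, and the grey band holds the central range of all tested genes between their quartiles.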

How the data were processed

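Poly(A)-selected RNA was sequenced from directional libraries, 3 of T47D-TR and 3 of T47D, assigned to groups by their titles. Per the submitters' processing notes, HISAT2 2.1.0, GRCh38 and DESeq were used; the labels name no counting tool or annotation. The authors deposited whole-number counts for each gene in each library, used unchanged. They also deposited group means on a normalized signal scale, a linear fold ratio, its log2 value, and a p-value with a false discovery rate; only the last was used. Transporters, gene lists and tests were chosen with earlier results of these data known.

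Counts were filtered with filterByExpr (minimum count 10, minimum total 15), scaled by TMM and compared with glmQLFit and glmQLFTest in edgeR 4.0.16 (R 4.3.3), without a replicate block, with Benjamini-Hochberg adjustment over all tested genes and a threshold of 0.05, 2-sided. CPM uses TMM-adjusted library sizes, in which 3 counts are 0.153 to 0.178 CPM in a library. SEs were computed from log2 CPM (prior count 2) across the libraries of each group, and the prior shrinks them where counts are low. There an SE can fall below counting error, as for SLC1A1, SLC38A4 and SLC7A5P2. The edgeR fit was also run on simulated data with an equal spread for all genes in both groups. That run cannot show its error rate on these libraries, whose spread differed between the groups. Values in every library are given for called members with a change of at least 2-fold or a mean of at least 50 CPM, and for others where counts are low; of each related list, up to 3 called genes at each end with at least 10 CPM, of which 1 is not reported here. Alternatives used DESeq2 1.42.0, limma 3.58.1, other scalings and filters, the replicate block, and 5 libraries. Gene positions come from RefSeq (GRCh38.p14) and exon lengths and overlaps from GENCODE 29, in which all 39 members were found.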

Additional observations from a re-analysis of the deposited data

How the results depend on the processing

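The counts of member calls and of all calls stayed within 1.5 times under every alternative run: RLE factors, library size alone, DESeq2, voom with quantile normalization, no filter, a mean of at least 5 CPM, the replicate block and leaving out each library. Members called higher ranged from 14 to 16 and lower from 8 to 11 when 1 library was left out. In the same fits 4669 to 5434 of all 16248 to 16389 tested genes were called higher and 4378 to 5231 lower. Quantile normalization moved the log2 fold changes of all genes by a median of -0.11. It called 16 members higher and 11 lower, beside 4361 and 5789 of all 15961 tested genes. No tested member changed sign under another scaling. SLC38A7, which was not called, ranged from -0.13 to 0.032 on leaving out 1 library, above 0 without T47D-TR replicate 2 (edgeR adjusted p = 0.747). SLC3A1 was called with quantile normalization (-0.23, limma adjusted p = 0.0289) and SLC7A7 without T47D-TR replicate 2 (-1.22, edgeR adjusted p = 0.0412); the cause was not tested. No pairing by the shared replicate numbers was seen. Deviations of same-numbered libraries correlated at -0.0051, -0.021 and -0.014 across genes, which are not independent replicates. Between T47D-TR and T47D libraries of unlike number the values ran from -0.0047 to 0.022. Such values cannot show whether libraries were handled in pairs. With the replicate block 15 members were higher and 10 lower, beside 5127 and 4827 of all 15961 tested genes. SLC7A1 lost its call there (0.12, edgeR adjusted p = 0.0514). Genes of under about 10 counts a library are limited by depth.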
